A study of Mus musculus with 16 samples.

Results

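The TREM receptors of mouse microglia and the molecules that carry or restrain their signal were followed in oxygen-induced retinopathy (OIR), a model in which a stay of the pups in high oxygen followed by room air leaves the retina hypoxic, with abnormal vessel growth. The set holds 9 genes of the 54532 in the deposited gene table, chosen by symbol: the receptors Trem2, Trem1, Treml2 and Treml4, the adaptor Tyrobp, the kinase Syk, the enzymes Plcg2 and Inpp5d, and the sialic acid receptor Cd33. Bulk RNA sequencing compared retinal microglia of 8 OIR and 8 nonOIR libraries at postnatal day 17. All mice of both groups were Cx3cr1CreERT2:Rosa26-tdTomato reporters, in which Cre under Cx3cr1 control switches on a red label in microglia and other Cx3cr1-expressing cells, and all had received tamoxifen (5 µl at 21 mg per ml) under the skin at postnatal day 1. The sort took tdTomato-positive, CD11b-positive, CD45-low cells without surface Ly6C or Ly6G. The labels do not say that libraries came from separate animals, so p-values speak only of the spread between samples, which could be technical.

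TREM receptors are surface proteins of myeloid cells, and the activating ones signal through a partner protein. TREM2, the member best known in microglia, binds lipids and lipoproteins and passes the signal through the adaptor DAP12, the product of Tyrobp, whose phosphorylated ITAM motif recruits the kinase SYK. SYK in turn activates phospholipase C gamma 2 (Plcg2), while the lipid phosphatase SHIP1 (Inpp5d) acts against such signals, as does CD33 in human cells.

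Libraries held 13.6 to 30.0 M gene counts (M, 1e6). In each group 5 libraries carried lane code 1 (replicates 1 to 5) and 3 carried lane code 2 (replicates 6 to 8), and the labels do not say whether the code also marks a batch of animals or of preparation. With edgeR's quasi-likelihood test and an adjusted p under 0.05, 10.9% of 12496 tested genes were called, 6.39% higher and 4.56% lower in OIR, and 2.02% had groups without overlap. On the first component of a principal component analysis of highly variable genes, which separated the groups, OIR replicates 1 and 2 (scores -4.60 and 2.11) lay nearest to the nonOIR libraries (-20.6 to -10.9) and OIR replicates 6 to 8 farthest (25.7 to 29.2). OIR replicate 1 also stood apart from all others on the third component, and values without it are given below for the genes it moved most. The microglial markers were high in all libraries, with a summed level of 38160 to 63420 CPM (counts relative to library size, after TMM scaling between libraries) in OIR and 65170 to 80700 in nonOIR, and 4 of 10 fell in OIR. Both tested red cell markers rose, their list summing to a median of 98.2 CPM in OIR (range 1.88 to 292) and 1.11 in nonOIR (range 0 to 28.9), and their part in the results below was not tested. Because these are bulk samples, fewer cells of a type and less RNA per cell cannot be told apart.

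Of the 9 genes, Treml4 alone passed the test, and it rose in OIR. Trem2, Tyrobp, Syk, Plcg2, Inpp5d, Treml2 and Cd33 did not pass, and Trem1 had too few counts to be tested (a gene needed about 10 counts in at least 8 libraries). The share called, 1 of 8 tested, stands beside 10.9% over all tested genes, and the median log2 fold change of the 8 was 0.04 against -0.03 over all. No member had groups without overlap.

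**Figure D1:**
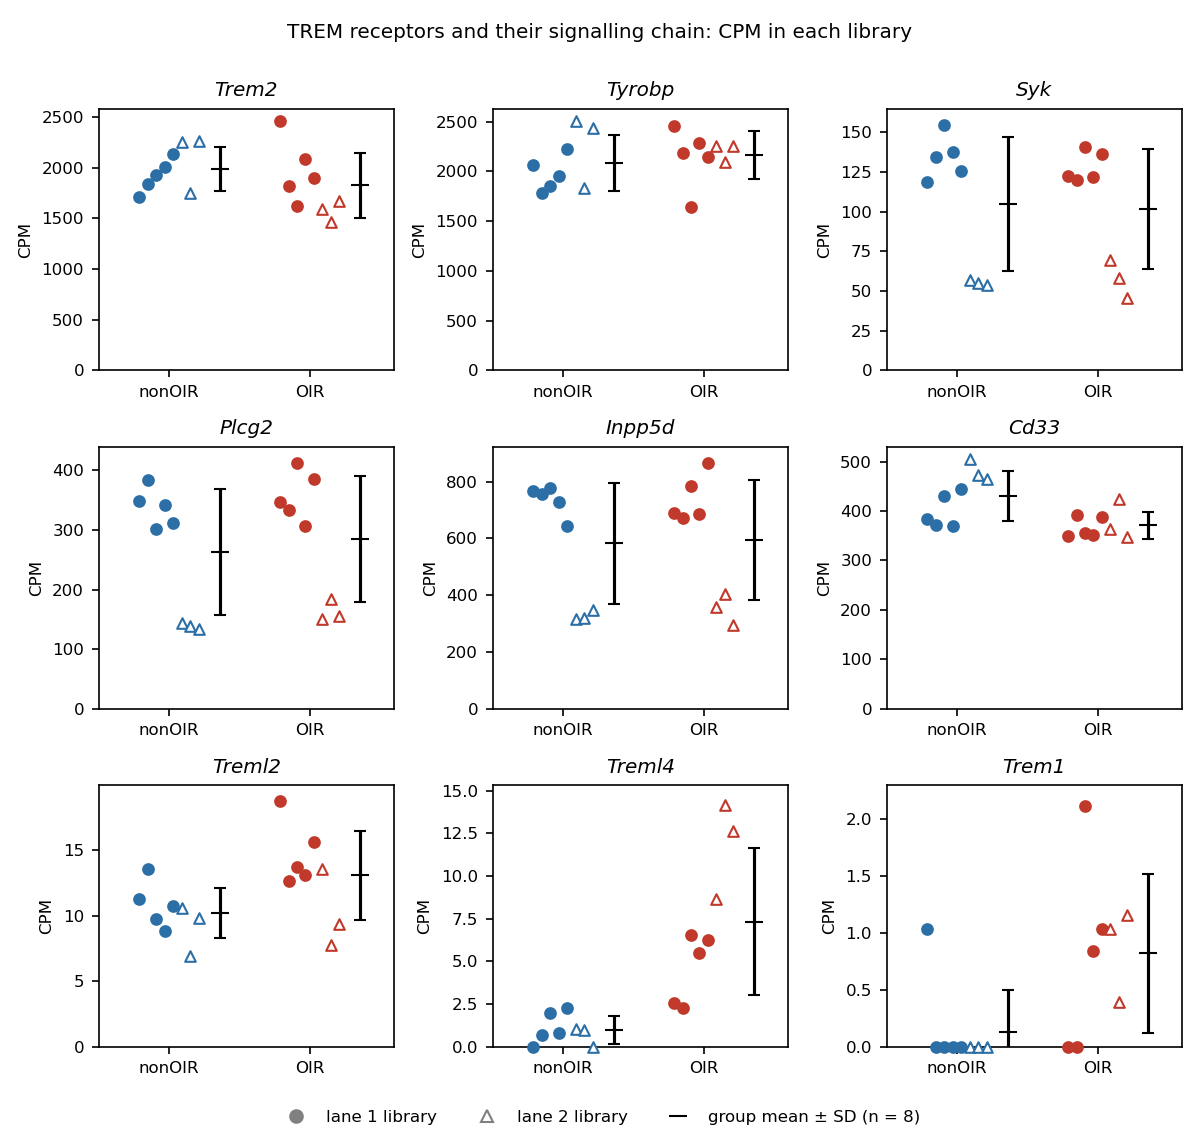
CPM of each of the 9 genes in each library (filled circles, lane 1; open triangles, lane 2), with the mean and SD of 8 libraries per group in black. Treml4 lies between 2.26 and 14.2 CPM in OIR and between 0 and 2.29 in nonOIR, while Syk, Plcg2 and Inpp5d split by lane in both groups.

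Trem2, the receptor, was one of the abundant transcripts of these cells. It ran from 1465 to 2458 CPM in OIR with a median of 1745, and from 1713 to 2266 in nonOIR with a median of 1969. The highest library of all 16 was an OIR one (replicate 1) and so were the 4 lowest (replicates 3, 6, 7 and 8), so the groups overlapped widely. Means were 1827 ± 322 and 1988 ± 217 CPM for OIR and nonOIR (SD, n = 8), a log2 difference in the fit of -0.12 ± 0.10 (SE; adjusted p = 0.495 by edgeR). Without OIR replicate 1 it was -0.19 (adjusted p = 0.170 by edgeR), and the ratio below was also farther from 0, at -0.23 (exact permutation, adjusted p = 0.0578). Among lane 2 libraries alone the OIR range of 1465 to 1668 CPM lay below the nonOIR range of 1751 to 2266, at a log2 fold change of -0.36 (edgeR adjusted p = 0.0577). In lane 1 the value was 0.04 (edgeR adjusted p = 0.893). The term for a different OIR effect in the lanes was -0.45 ± 0.16 for Trem2, with an unadjusted p of 0.0144 and an edgeR adjusted p of 0.225. By that term 0 of the 8 genes passed, against 0.496% of all genes, and Trem2 was the only one with an unadjusted p under 0.05.

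Tyrobp, whose product DAP12 couples TREM2 and other receptors to SYK, stood as high as Trem2 in CPM. It ran from 1642 to 2456 CPM in OIR with a median of 2217, and from 1787 to 2508 in nonOIR with a median of 2010. OIR replicate 3 held the lowest value and nonOIR replicate 6 the highest, and the remaining libraries were mixed. The fit put Tyrobp at a log2 fold change of 0.06 ± 0.09 (SE; adjusted p = 0.765 by edgeR).

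The balance of receptor to adaptor was compared inside each library as the ratio of Trem2 to Tyrobp CPM, which needs no scaling between libraries. It ran from 0.698 to 1.00 in OIR with a median of 0.861, and from 0.829 to 1.04 in nonOIR with a median of 0.957. The 3 lowest ratios were the 3 OIR libraries of lane 2, at 0.706, 0.698 and 0.740. Means were 0.846 ± 0.121 and 0.959 ± 0.0738 (SD, n = 8), a log2 difference of -0.19 with 6 of 8 OIR libraries below the nonOIR median. The two-sided exact permutation p was 0.0426, and 0.128 after adjustment over the 3 ratios computed, so the difference did not pass. Within lane 1 the log2 difference was -0.08 (exact permutation p = 0.349), and within lane 2 it was -0.38, where 3 libraries against 3 gave the smallest p they allow (exact permutation p = 0.1).

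Treml4 encodes a TREM-like receptor found on some macrophages, dendritic cells and monocytes, and it was the member that rose. In OIR its levels were 2.58, 2.26, 6.54, 5.50 and 6.26 CPM in lane 1 and 8.68, 14.2 and 12.6 CPM in lane 2. In nonOIR they were 0, 0.673, 1.96, 0.806 and 2.29 CPM in lane 1 and 1.07, 0.977 and 0 in lane 2. Every OIR library was above the nonOIR median of 0.891, and 7 of 8 were above the highest nonOIR library, with OIR replicate 2 just under nonOIR replicate 5. These levels rest on 1485 reads in OIR and 177 in nonOIR. Mean levels were 7.33 ± 4.31 and 0.972 ± 0.822 CPM (SD, n = 8), a fitted 7.44-fold rise (log2 fold change 2.89 ± 0.65, 95% normal interval 1.62 to 4.17, edgeR adjusted p = 0.00797). The authors' deposited table gives Treml4 a smaller log2 fold change of 1.38 with an adjusted p of 0.000141, and the tools listed for it include DESeq2 2.11.40.2. DESeq2 run here on the raw counts gave 2.9 (DESeq2 adjusted p = 7.16e-05). The reason for the smaller deposited value was not tested.

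The level of Treml4 was higher in OIR in both lanes, and passed the test in lane 2 only. The 2 lowest OIR libraries, replicates 1 and 2, were those nearest to nonOIR on the first component, and the 3 highest, replicates 6 to 8, those farthest from it. That component was computed from these same libraries without holding Treml4 out, so it is not an independent measure. Replicates 6 to 8 are also the OIR libraries of lane 2. Left out one at a time, replicates 1 and 2 gave a log2 fold change of 3.0 each (edgeR adjusted p = 0.00507 and 0.00622). With lane as a covariate, a fit in which 17.3% of all genes were called, the log2 fold change was 2.75 ± 0.66 (edgeR adjusted p = 0.00687). In lane 1 alone it was 2.00 and did not pass (edgeR adjusted p = 0.173, with 3.33% of genes called in that fit). In lane 2 alone it was 4.14 (edgeR adjusted p = 0.0109, with 15.4% of genes called). The 2 lane effects differed by 2.11 ± 1.20, which did not pass (edgeR adjusted p = 0.484).

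**Figure D2:**
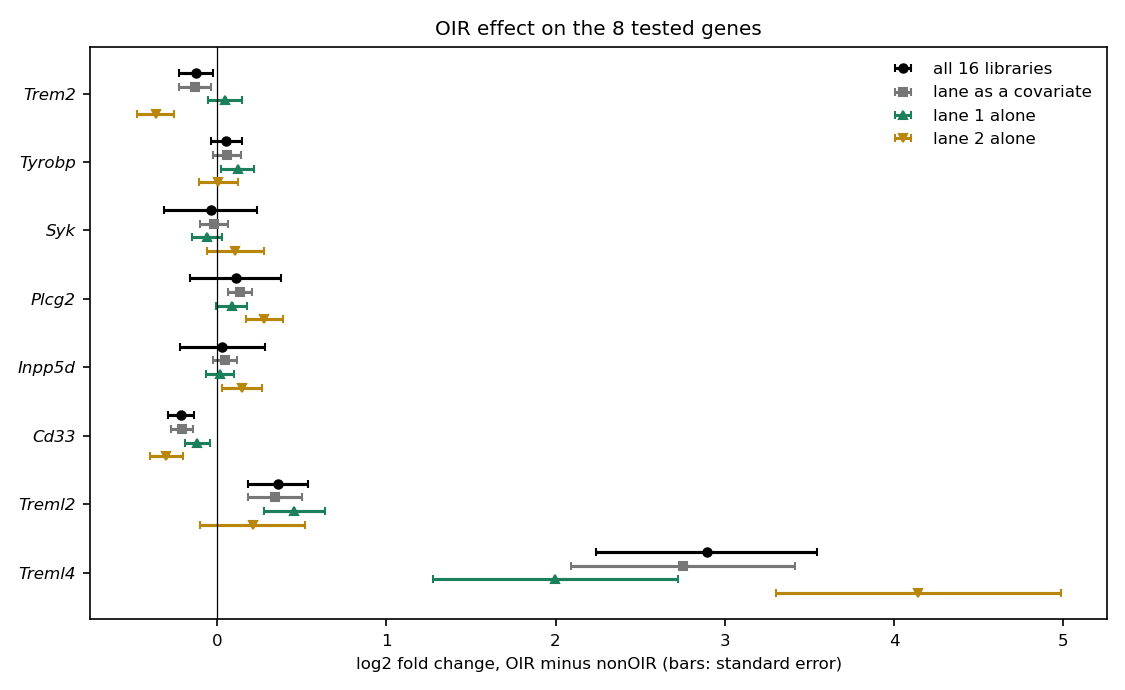
Log2 fold change of OIR against nonOIR for the 8 tested genes, with its standard error, from all 16 libraries, with lane as a covariate, and in each lane alone. Treml4 is at 2.89 over all libraries, 2.00 in lane 1 and 4.14 in lane 2, and the other genes are much closer to 0.

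Cells other than microglia can carry Treml4, so their markers were read in the same libraries. The monocyte list summed to 14.8 to 115 CPM in OIR (median 41.4) and 6.68 to 72.1 in nonOIR (median 19.3), with Ly6c2 at 0 in every library and none of its 3 tested genes called. Cells with surface Ly6C had been left out by the sort, so the absence of Ly6c2 says little about monocytes without it. Markers of patrolling monocytes, a list added after Treml4's values were seen, summed to 11.2 to 27.2 CPM in OIR and 10.6 to 20.6 in nonOIR, again with none of 2 tested genes called. Among the tested monocyte genes the log2 fold changes were 1.96 for Plac8 (edgeR adjusted p = 0.051), 1.42 for F13a1 and -0.06 for Ccr2. Of the 2 tested patrolling monocyte genes, Itgal had means of 9.82 CPM in OIR and 3.09 in nonOIR. Its log2 fold change was 1.68 (edgeR adjusted p = 0.0846), and that of Eno3 was -0.12. The dendritic cell list had medians of 12.5 and 14.3 CPM with none of 4 called. Markers of macrophages at the tissue borders had medians of 116 CPM in OIR (range 9.44 to 308) and 59.2 in nonOIR (range 13.2 to 146), with none of 7 called and all 7 log2 fold changes above 0 (0.42 to 1.81). Over both groups the border macrophage list had medians of 59.7 CPM in lane 1 and 185 in lane 2, and the monocyte list 21.6 and 63.5. The part of these cells in the level of Treml4 was not tested.

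Treml4 lies in the TREM cluster of chromosome 17 (mm10) and spans 48264295 to 48275360 on the plus strand. The 250 bases before the annotated start are shown for Treml4 and, to compare the gene that rose with neighbours that did not pass or could not be tested, for Trem2 and Trem1. Sequences are those of RefSeq for GRCm38.p6, plus strand, 5′ to 3′, and capitals mark GAGGAA or its reverse complement TTCCTC, the core letters bound by PU.1, the transcription factor that defines myeloid cells. The windows are chr17:48264045-48264294 for Treml4, chr17:48346151-48346400 for Trem2 and chr17:48232489-48232738 for Trem1.
Treml4: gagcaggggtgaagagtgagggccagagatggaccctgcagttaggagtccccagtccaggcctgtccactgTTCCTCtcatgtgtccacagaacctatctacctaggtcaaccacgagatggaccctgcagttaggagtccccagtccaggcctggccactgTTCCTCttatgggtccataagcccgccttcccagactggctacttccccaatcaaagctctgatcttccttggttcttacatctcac
Trem2: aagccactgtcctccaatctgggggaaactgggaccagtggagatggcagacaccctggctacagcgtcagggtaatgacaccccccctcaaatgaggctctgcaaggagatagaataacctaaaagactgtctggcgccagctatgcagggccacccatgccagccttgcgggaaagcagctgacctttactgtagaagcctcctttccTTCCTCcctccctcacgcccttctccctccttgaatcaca
Trem1: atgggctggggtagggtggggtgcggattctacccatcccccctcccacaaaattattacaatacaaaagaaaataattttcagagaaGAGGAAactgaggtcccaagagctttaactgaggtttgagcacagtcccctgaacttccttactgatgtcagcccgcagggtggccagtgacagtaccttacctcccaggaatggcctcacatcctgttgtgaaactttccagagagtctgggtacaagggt

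The Treml4 window held the motif at 2 places, 178 and 87 bases before the start. Both copies sit just after the same stretch of 40 bases, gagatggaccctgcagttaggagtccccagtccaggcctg, which occurs without a mismatch at 225 and again at 134 bases before the start, a spacing of 91. A repeat at least that long was found in 82 of 32851 promoter windows of the same length (0.25%), and the longest repeats in the other members' windows were 7 to 11 bases. Trem2 held 1 motif 40 bases and Trem1 1 motif 162 bases before the start. Cd33 held 1 at 226 bases, Inpp5d 1 at 20, and Syk 1 at 9 in 1 of its 2 starts. The windows of Cd33 and Syk lie inside the GENCODE M21 spans of these genes, so the starts used for windows can differ from the ends of those spans. Plcg2 held none, and Tyrobp and Treml2 were not matched. In all, 6 of 8 member windows (7 of 9 genes matched) held these letters on either strand, as did 23.3% of all promoter windows. A match is a description of letters and does not show that the factor binds there.

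No neighbour of Treml4 in the cluster passed the test, and only Treml2 and Trem2 had enough counts to be tested. Treml2, a TREM-like gene that begins 66.7 kb from the start of Trem1, ran from 7.79 to 18.8 CPM in OIR with a median of 13.3, and from 6.96 to 13.5 in nonOIR with a median of 10.2. The ranges overlapped from 7.79 to 13.5, and 4 of 8 OIR libraries were above the highest nonOIR library. Its log2 fold change was 0.36 ± 0.18 (SE, adjusted p = 0.220 by edgeR), and 0.34 with lane as a covariate (adjusted p = 0.150 by edgeR). OIR replicate 1 held the highest Treml2 value, and without that library the log2 fold change was 0.27 (adjusted p = 0.349 by edgeR).

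Trem1, a receptor known as an amplifier of inflammation in neutrophils and monocytes, was near the limit of detection. It had 179 counts in 6 of 8 OIR libraries and 14 counts in 1 of 8 nonOIR libraries. The OIR values ran from 0 to 2.12 CPM with a median of 0.938, and the single nonOIR library with counts, replicate 1, stood at 1.04. Without the filter on low counts the log2 fold change was 2.81 ± 1.29 (SE) and did not pass (edgeR adjusted p = 0.217). The neutrophil markers were near 0 throughout, summing to at most 6.67 CPM in OIR and 1.66 in nonOIR, with Ly6g, Ngp and Retnlg at 0. Cells with surface Ly6G had been left out by the sort, which favoured such low values in advance. Trem3, which begins 15.0 kb from the start of Trem1, had 24 counts in OIR and 0 in nonOIR, where 3 counts is the limit that a count of 0 allows. Treml1, the last gene of the cluster and known from platelets, had 55 and 24 counts. Treml6 was not analysed here.

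**Figure D3:**
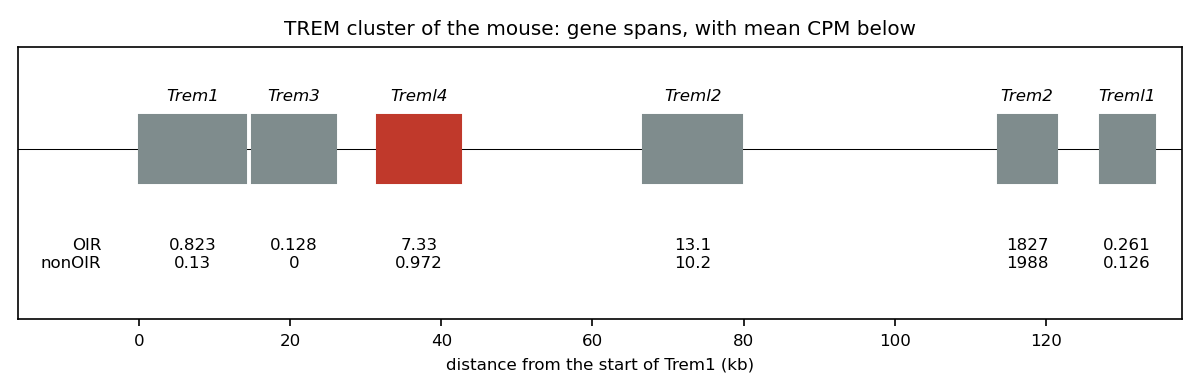
Gene spans of the TREM cluster by distance from the start of Trem1 in kb, with mean CPM of 8 OIR and 8 nonOIR libraries under each gene. Treml4, in red, lies between Trem3 and Treml2 and is the only 1 of the 3 tested genes of the cluster that passed, at 7.33 CPM in OIR and 0.972 in nonOIR, while Trem2 has 1827 and 1988.

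Behind the adaptor, Syk, Plcg2 and Inpp5d did not pass the test between the groups, and all 3 split by lane. Syk, the kinase recruited to DAP12, ran from 45.4 to 141 CPM in OIR with a median of 121, and from 53.5 to 154 in nonOIR with a median of 122. Its log2 fold change was -0.04 ± 0.27 (SE; adjusted p = 0.954 by edgeR), and its sign depended on the scaling, at 0.03 with library size alone. Plcg2, which cleaves a membrane lipid into second messengers, ran from 149.8 to 413 CPM in OIR (median 320) and from 133 to 385 in nonOIR (median 307), with 0.11 ± 0.27 as its log2 fold change (SE; adjusted p = 0.849 by edgeR). Inpp5d, whose product SHIP1 removes the lipid signal made by PI3 kinase, ran from 296 to 866 CPM in OIR (median 679) and from 317 to 777 in nonOIR (median 685), with 0.03 ± 0.25 as its log2 fold change (SE; adjusted p = 0.960 by edgeR). Lane as a covariate shrank the standard errors to between 0.07 and 0.08 and left the estimates at -0.02, 0.14 and 0.05, with edgeR adjusted p of 0.918, 0.213 and 0.723. Within lane 2 the OIR range of Plcg2 (149.8 to 184 CPM) lay above the nonOIR range (133 to 144), at a log2 fold change of 0.28 that did not pass (edgeR adjusted p = 0.123, unadjusted 0.0304). Within lane 1 its ranges overlapped, at 0.09 (edgeR adjusted p = 0.726).

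The lanes of these 3 genes did not overlap. Over both groups Syk lay between 119 and 154 CPM in lane 1 and between 45.4 and 69.4 in lane 2. Plcg2 lay between 302 and 413 in lane 1 and between 133 and 184 in lane 2. Inpp5d lay between 644 and 866 in lane 1 and between 296 and 406 in lane 2. With group as a covariate the lane 2 level was 0.431 of that in lane 1 for Syk (log2 -1.22 ± 0.09, edgeR adjusted p = 3.37e-08), 0.433 for Plcg2 (-1.21 ± 0.08, edgeR adjusted p = 1.17e-08) and 0.462 for Inpp5d (-1.11 ± 0.08, edgeR adjusted p = 1.70e-08). By this test 24.8% of all genes were called, 13.8% as lower in lane 2, and between 1.92% and 2.75% of genes had a lower lane difference than these 3. The other 5 members did not pass, with log2 lane differences from -0.39 for Treml2 to 0.45 for Treml4.

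Genes with more exon sequence were more often lower in lane 2. The share called lower was 2.69%, 10.2%, 18.0% and 24.6% from the shortest to the longest of 4 equal groups of tested genes by exon length, and the share called higher went from 16.7% to 5.74%. Syk (9362 bases of exon in GENCODE M21) and Inpp5d (7602 bases) are in the longest group and Plcg2 (4298 bases) is in the third. Cd33, with 7771 bases, is also in the longest group and was not lower in lane 2 (log2 0.16 ± 0.06, edgeR adjusted p = 0.0867). Tyrobp, with 667 bases, is in the shortest, at 0.12. What the lanes differ in, and the part of length in these values, was not tested.

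**Figure D4:**
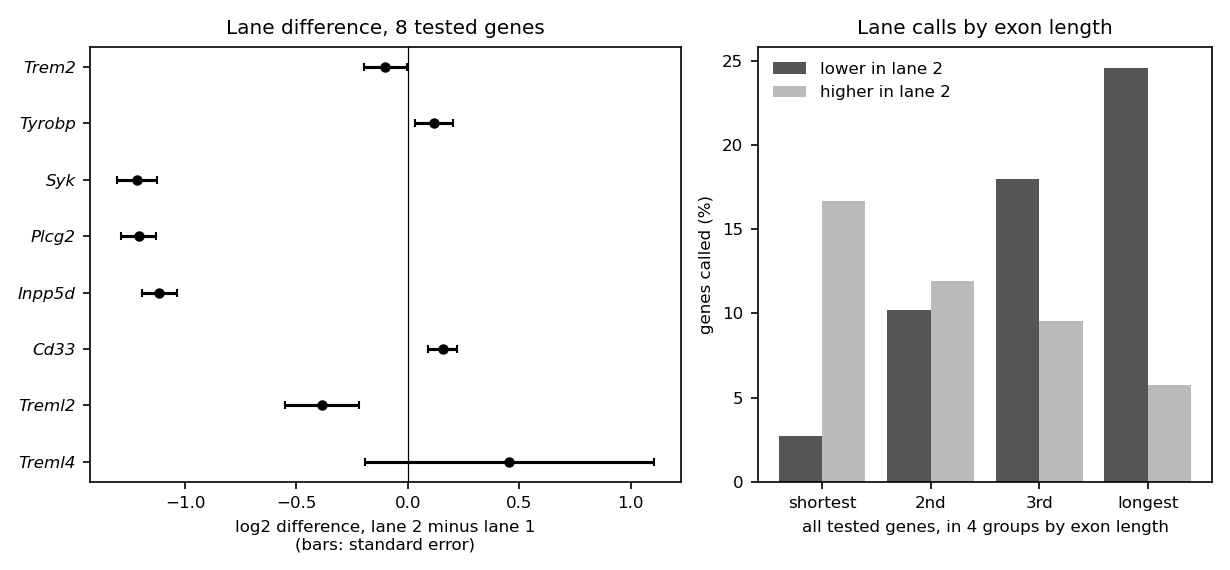
Left, log2 difference of lane 2 minus lane 1 for the 8 tested genes, with its standard error and with group as a covariate. Right, the percent of all tested genes called lower or higher in lane 2 in 4 groups by exon length. Syk, Plcg2 and Inpp5d sit between -1.22 and -1.11, apart from the other 5, and the share called lower goes from 2.69% in the shortest group to 24.6% in the longest.

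The proportions among these 3 genes varied much less than their levels. Inpp5d to Syk averaged 5.93 ± 0.613 for OIR and 5.68 ± 0.564 for nonOIR (SD, n = 8, two-sided exact permutation p = 0.396), with a range of 5.03 to 6.47 in lane 1 and 5.14 to 6.96 in lane 2. Plcg2 to Syk averaged 2.83 ± 0.382 for OIR and 2.53 ± 0.298 for nonOIR (SD, n = 8, two-sided exact permutation p = 0.132, and 0.197 adjusted over the 3 ratios). In that ratio 7 of 8 OIR libraries were above the nonOIR median, and the groups still overlapped. The lane ranges of both ratios overlapped, unlike those of the genes themselves.

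Cd33 encodes a sialic acid receptor whose human counterpart restrains myeloid activation. It ran from 347 to 425 CPM in OIR with a median of 360, and from 369 to 506 in nonOIR with a median of 437. All 8 OIR libraries were below the nonOIR median, and only the lower part of the nonOIR range overlapped with them. Means were 371 ± 27.5 and 430 ± 50.9 CPM (SD, n = 8), and the log2 fold change of -0.21 ± 0.08 did not pass (edgeR adjusted p = 0.0891). With lane as a covariate the estimate was again -0.21 ± 0.06 and passed (edgeR adjusted p = 0.0302). Within lane 1 it was -0.12 (edgeR adjusted p = 0.477) and within lane 2 -0.30 (edgeR adjusted p = 0.0674). The authors' deposited table lists Cd33 at -0.20 with an adjusted p of 0.0722.

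Levels can be compared between genes only per length, here as CPM per kilobase of exon (RPKM). Tyrobp was highest, at 3246 RPKM in OIR and 3123 in nonOIR, followed by Trem2 at 369 and 402, Inpp5d at 78.2 and 76.6, Plcg2 at 66.1 and 61.2, Cd33 at 47.8 and 55.4, and Syk at 10.9 and 11.2. Below them Treml4 stood at 3.67 and 0.487, Treml2 at 2.66 and 2.07, and Trem1 at 0.275 and 0.0433. Neighbours in that order were separated in 8 of 8 libraries of a group except for Plcg2 over Cd33 (5 of 8 in both groups), Syk over Treml4 (6 of 8 in OIR), Treml4 over Treml2 (5 of 8 in OIR) and Treml4 over Trem1 (6 of 8 in nonOIR). The order of Plcg2 and Cd33 went by lane: Plcg2 was above in every lane 1 library and below in every lane 2 library of both groups. The OIR libraries with Syk below Treml4, replicates 7 and 8, were also of lane 2. Treml2 was above Treml4 in 8 of 8 nonOIR libraries. The gap between Tyrobp and Trem2 depends on the length used: per the longest coding transcript (597 and 1088 bases) they stood at 3626 and 1679 RPKM in OIR. By that length the order of Plcg2 and Cd33 turned in nonOIR, at 61.2 and 75.1 RPKM, with Plcg2 above in 3 of 8 libraries.

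The genes that varied most like Trem2 were found from deviations of log2(CPM + 1) from the mean of each group and lane, over 16 libraries and 7809 genes with a mean of at least 10 CPM. They were Tspan4 (Pearson r 0.946), Susd3 (0.935), Atp6v0b (0.930), C1qb (0.929) and BC004004 (0.921). Tyrobp ranked 48 with an r of 0.827. The genes behind the adaptor went the other way or showed little relation, with r of -0.49 for Plcg2, -0.42 for Inpp5d and -0.19 for Syk. Treml2 stood at 0.45 (rank 1189), and Cd33 and Treml4 at -0.08 each. These values describe libraries that share depth and preparation, and carry no test.

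Around the members, 122 listed pathway genes were in the table and 111 were tested, of which 18 rose (16.2%) and 7 fell (6.31%) in OIR. Their median log2 fold change was 0.00 against -0.03 over all tested genes, where 6.39% rose and 4.56% fell. The counts for single lists below stand beside these shares, and the lists were chosen with earlier results of these data known. With lane as a covariate 26 of the 111 genes rose and 18 fell, in a fit that called 9.68% of all genes as higher and 7.59% as lower. Among other receptors that use DAP12, 1 of 7 tested rose: Cd300lb, an activating receptor of the CD300 family, from 4.91 ± 2.81 to 20.4 ± 9.87 CPM (SD, n = 8, 4.13-fold, edgeR adjusted p = 0.0155). Siglech, far more abundant at 1197 CPM in OIR and 1630 in nonOIR, had a log2 fold change of -0.44 and did not pass (edgeR adjusted p = 0.152). With lane as a covariate Cd300lb and Cd300ld were called higher, and Siglech was called lower, at -0.50 (edgeR adjusted p = 0.00166). Neither of the other ITAM adaptors, Hcst and Fcer1g, passed. Fcer1g, which serves Fc receptors, had means of 1661 ± 255 and 1724 ± 262 CPM for OIR and nonOIR (SD, n = 8).

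Among proposed TREM2 ligands 1 of 5 tested rose, Anxa5, which binds phosphatidylserine, at 2.33-fold (196 ± 83.5 against 84.1 ± 12.9 CPM, edgeR adjusted p = 0.00109). Apoe, a lipoprotein ligand named here after its values were seen, stood at 9542 ± 6742 CPM in OIR and 6087 ± 4069 in nonOIR and did not pass (edgeR adjusted p = 0.524). Its levels split by lane, with means of 14080 and 8949 CPM in lane 1 and 1977 and 1316 in lane 2 for OIR and nonOIR. With lane as a covariate its log2 fold change was 0.63 (edgeR adjusted p = 0.00139). None of the 9 genes for the proteases that shed and cut TREM2, among them Adam10, Adam17 and the gamma-secretase subunits, passed.

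Of the Src-family kinases that phosphorylate ITAMs, 1 of 6 tested rose, Fgr at 1.57-fold (35.3 ± 5.92 against 22.5 ± 4.45 CPM, edgeR adjusted p = 0.00538). Lyn, far more abundant at 805.5 CPM in OIR and 913.3 in nonOIR, did not pass (edgeR adjusted p = 0.179). With lane as a covariate Lyn was called lower, at a log2 fold change of -0.18 (edgeR adjusted p = 0.0139). Of 38 tested genes downstream of SYK, 2 rose and 2 fell, with a median log2 fold change of -0.11. The kinase genes Mapk3 and Akt1 rose 1.27-fold and 1.18-fold (edgeR adjusted p = 0.0285 and 0.0326). Malt1, of the CARD9 and BCL10 complex, fell to 0.598 of its nonOIR level (edgeR adjusted p = 0.0288), and the other that fell was Blnk. With lane as a covariate 4 of the 38 rose and 8 fell, against those shares of 9.68% and 7.59% over all genes, and 20 of the 38 were lower in lane 2 against 13.8% of all genes. Plcg1, the sister enzyme of Plcg2, was among the latter, at a log2 lane difference of -1.15.

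Among lipid and SH2 phosphatases and the Dok adaptors, 1 of 11 rose, the adaptor gene Dok2, from 1.08 ± 0.648 to 5.39 ± 4.56 CPM (4.99-fold, edgeR adjusted p = 0.0342), while Inppl1 (SHIP2) and Ptpn6 (SHP1) did not pass. Of 14 other inhibitory receptors 2 rose (14.3%) and 4 fell (28.6%), against 6.39% and 4.56% of all tested genes. Pilra rose 1.55-fold (edgeR adjusted p = 0.00292) but shares exon sequence with Zcwpw1, whose reads cannot be told apart without strand. Cd300lf rose 2.28-fold (edgeR adjusted p = 0.00612), and Cd300a fell to 0.707 of its nonOIR level (edgeR adjusted p = 0.00416). The other 3 that fell, named after their values were seen, were Lair1, Clec4a2 and Fcgr2b. Of these, Fcgr2b shares exon sequence with Gm38204.

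Genes of the microglial state known from mouse models to need TREM2 were also read. Of 15 tested, 7 rose (46.7%) and 1 fell (6.67%), with a median log2 fold change of 0.65. Over all tested genes 6.39% rose and 4.56% fell, with a median of -0.03. This list too was chosen with earlier results of these data known. Cst7, a cystatin, rose 2.54-fold (86.7 ± 9.68 against 34.1 ± 8.49 CPM, edgeR adjusted p = 2.38e-05). Lpl, lipoprotein lipase, rose 3.10-fold (edgeR adjusted p = 0.000126), and Axl, a receptor for dying cells, rose 2.06-fold (edgeR adjusted p = 0.000129). The others that rose were Csf1, Clec7a, Spp1 and Gpnmb, and Ccl6 fell. Spp1 shares exon sequence with Gm42793 and varied widely, at 268 ± 307 CPM in OIR and 40.2 ± 20.6 in nonOIR (SD, n = 8). Its log2 fold change was 2.74, and 1.83 with lane as a covariate (edgeR adjusted p = 0.0397). Of 6 genes of the stage held not to need TREM2, 3 rose: Ctsb at 1.45-fold, Fth1 at 1.71-fold and Lyz2 at 1.92-fold (edgeR adjusted p = 0.0011, 0.0086 and 0.0135). Ctsb shares exon sequence with Fdft1. Their median log2 fold change was 0.59, and no test compared the 2 lists.

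**Figure D5:**
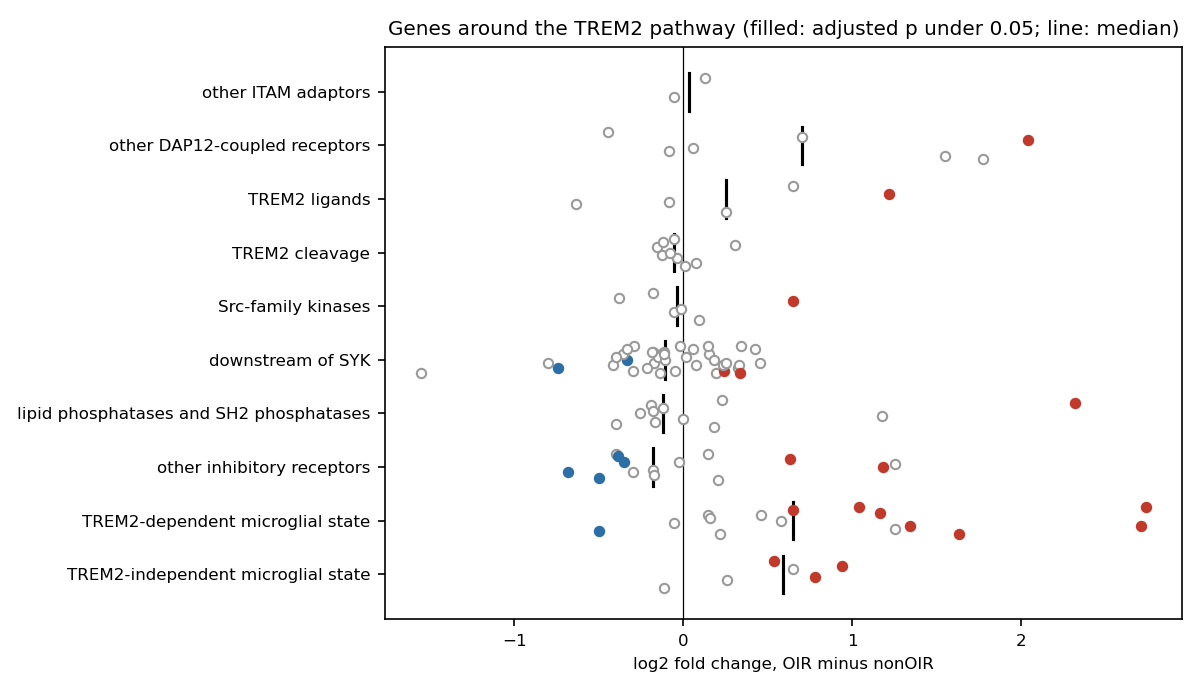
Log2 fold change of OIR against nonOIR for each tested gene of the pathway lists, with filled points for an edgeR adjusted p under 0.05 and a black line at each list's median. Most genes downstream of SYK lie near 0 (median -0.11). The TREM2-dependent microglial state has 7 of 15 genes called as higher and 1 as lower, against 6.39% and 4.56% of all tested genes.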

How the data were processed

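The deposited gene table was analysed. Per the file headers it gives raw counts of reads for each gene. Build mm10 and the tools STAR 2.6.0b-1 and featureCounts 1.6.2 come from the submitters' processing notes, and the sources used here do not name the annotation. The authors also deposited normalized signal, log2 fold changes, a Wald score and p-values; those log2 values and adjusted p-values were only set beside the tests. Per the labels, cDNA came from 750 pg of RNA (12 cycles, reads of 50 bases) by a workflow that does not mark strand.

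Counts were filtered (filterByExpr), TMM-scaled and tested by the robust, two-sided quasi-likelihood test of edgeR 4.0.16 (R 4.3.3), with Benjamini-Hochberg adjustment over 12496 genes. All edgeR p-values come from this test. On counts simulated for 12496 genes, changes were planted in 67 genes at 1.5-fold, 67 at 2-fold and 66 at 4-fold. The planted genes had means above 2 CPM, and no lane difference was simulated. The test recovered 35.8%, 68.7% and 93.9% of them, with 7 false calls among 139. No member's exons overlap another gene's in GENCODE M21. Besides the pathway genes marked above as sharing exon sequence, Inppl1, Ptpn6, Plcg1, Adam17 and Lyn also share some with other genes. Reads lack molecular identifiers, so limits from counts cover counting error only.

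Named genes were the members, the other cluster genes, up to 3 genes with the lowest p among those past the threshold in each pathway list, and the 5 most like Trem2. Any other gene in the text (among them Apoe, Blnk, Csf1, Clec7a, Spp1, Gpnmb, Ccl6, Hcst, Fcer1g, Plcg1, Inppl1, Ptpn6, Adam10, Adam17, Siglech, Cd300ld and Lyn) was chosen after its values were seen. Members and lists were chosen with earlier results of these data known. Alternatives covered scaling, filters, DESeq2 1.42.0, limma-voom (limma 3.58.1), lane, a replicate block and the omission of each library.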

Additional observations from a re-analysis of the deposited data

Results flagged for a closer look

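In 18 groups of 8 libraries, each highest and lowest value was compared with its nearest neighbour, and chance flags about 1 in 20 such groups. OIR replicate 3 had 1640 CPM of Tyrobp, apart from the other 7 OIR libraries. NonOIR replicate 1, the library with the fewest reads, had 1.04 CPM of Trem1, while the other 7 nonOIR libraries were at 0. With those 7 at 0 any count in the remaining library is flagged, so the rate of 1 in 20 does not apply there.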

How the results depend on the processing

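Treml4 was past the threshold in 26 of 27 alternatives, with log2 fold changes of 2.0 to 4.1 and edgeR, DESeq2 or limma adjusted p of 7.16e-05 to 0.173, and was lost only within lane 1. Cd33 passed in 1 of 27, with lane as a covariate. The number of members called was 2 with lane as a covariate (Treml4 and Cd33), 0 within lane 1, and 1 whichever library was left out. The sign of Trem2 turned within lane 1 (0.045). The sign of Syk turned with library size alone (0.026), with limma-voom (0.0042) and within lane 2 (0.11), and ranged from -0.14 to 0.082 when libraries were left out; for Inpp5d that range was -0.066 to 0.14. None of these was called, and the cause of these moves and of the loss of Treml4 in lane 1 was not tested. The 3 ratios kept their sign and did not pass after adjustment in the 19 alternatives run for each. Within lane 2 they could not have passed, as the smallest exact permutation p there is 0.1. The replicate block leaves the log2 differences unchanged by construction, so it could not have turned their sign. Same-numbered libraries share a lane, and 2 of 8 OIR libraries matched best with their own number. Because lane differences stayed in the values compared, this check cannot show whether the numbers pair libraries. With a replicate block 38 pathway genes were called, against 25 without it, 44 with lane as a covariate, 15 within lane 1 and 18 to 28 when libraries were left out. Over all genes 13.4% were called with the block, 10.9% without it, 17.3% with lane as a covariate and 3.33% within lane 1.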
